A study of Mus musculus with 2 samples.

Results

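The genes described here are 8 members of the tumor necrosis factor (TNF) and RANK ligand axis in the mouse temporomandibular joint (TMJ), chosen by name: the ligands *Tnf* and *Tnfsf11* (RANK ligand, RANKL), the TNF receptors *Tnfrsf1a* and *Tnfrsf1b*, the RANKL receptor *Tnfrsf11a* (RANK), the decoy receptor *Tnfrsf11b* (osteoprotegerin, OPG), and the TNF-induced genes *Tnfaip3* (A20) and *Tnfaip6* (TSG-6). The members were chosen with earlier results of these data known. Each of the 8 symbols was carried by a single gene among the 32285 genes counted. The study used CFA, an emulsion of oil and killed mycobacteria that provokes inflammation, to model TMJ osteoarthritis with pain. Cells of the whole joint region were read by single-cell RNA sequencing in 2 libraries, 1 for the PBS control and 1 for the CFA group. All animals were C57BL/6 mice labelled WT and 8 to 10 weeks old. The methods describe females that received 10 µL of either PBS or CFA (5 mg/mL) in both joints when 8 weeks old and whose joints were taken 3 weeks afterwards, 3 animals per group. The digest mixed condyle and disc with temporal bone, ligament and muscle, and cells carrying the leukocyte antigen CD45 were depleted with beads, so the numbers of leukocytes do not give their share of the tissue. Nothing in the counts tells the animals of a library apart, so no difference between the libraries has a replicate check and no p-value is given.

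TNF is made as a membrane protein, mostly by myeloid cells, and acts on a receptor present on most cells and on another found mainly on leukocytes and endothelium. Both receptors lead to NF-κB, a transcription factor that switches on chemokines, adhesion molecules, matrix-degrading enzymes and its own brakes, A20 among them. RANKL is made by cells of the osteoblast and fibroblast lineages and drives myeloid precursors that carry RANK to become osteoclasts, the cells that resorb bone. OPG is secreted and keeps RANKL from reaching RANK, and TSG-6 is a secreted protein that binds hyaluronan and links it to proteins of the inter-alpha-inhibitor family.

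In the mouse genome (GRCm38, GENCODE annotation), *Tnf* (ENSMUSG00000024401) lies at chr17:35199381-35202007 on the minus strand and *Tnfsf11* (ENSMUSG00000022015) at chr14:78277445-78308043 on the minus strand. The receptor genes lie at chr6:125349362-125362484 on the plus strand (*Tnfrsf1a*, ENSMUSG00000030341), chr4:145213463-145246870 on the minus strand (*Tnfrsf1b*, ENSMUSG00000028599), chr1:105780718-105847981 on the plus strand (*Tnfrsf11a*, ENSMUSG00000026321) and chr15:54250619-54278484 on the minus strand (*Tnfrsf11b*, ENSMUSG00000063727). *Tnfaip3* (ENSMUSG00000019850) lies at chr10:19000910-19015657 on the minus strand and *Tnfaip6* (ENSMUSG00000053475) at chr2:52038009-52056686 on the plus strand. None of the 8 overlapped another annotated gene on either strand.

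RefSeq promoters (GRCm38.p6, 250 bases before to 50 bases after a start site) were matched to 7 of the 8 members, with 8 promoters in all. No promoter was matched to *Tnfrsf11b*. Those shown belong to the 4 members at least 2-fold higher in CFA than in PBS neutrophil-like cells, *Tnf*, *Tnfrsf1b*, *Tnfaip3* and *Tnfaip6*. Each reads 5′ to 3′ on the strand of its gene. Capitals mark matches to an NF-κB motif, GGANTTTCC, and to an AP-1 motif, TGANTCA, which reads the same on both strands. Both motifs were searched on both strands and none of their matches overlapped. The intervals are chr17:35201958-35202257 (minus strand), chr4:145246821-145247120 (minus), chr10:19015361-19015660 (minus) and chr2:52037863-52038162 (plus).
Tnf: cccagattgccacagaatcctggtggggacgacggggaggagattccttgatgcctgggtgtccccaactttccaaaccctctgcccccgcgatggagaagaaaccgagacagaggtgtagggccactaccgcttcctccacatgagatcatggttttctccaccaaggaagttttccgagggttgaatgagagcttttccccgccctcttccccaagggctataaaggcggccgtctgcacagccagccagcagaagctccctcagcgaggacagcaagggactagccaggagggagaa
Tnfrsf1b: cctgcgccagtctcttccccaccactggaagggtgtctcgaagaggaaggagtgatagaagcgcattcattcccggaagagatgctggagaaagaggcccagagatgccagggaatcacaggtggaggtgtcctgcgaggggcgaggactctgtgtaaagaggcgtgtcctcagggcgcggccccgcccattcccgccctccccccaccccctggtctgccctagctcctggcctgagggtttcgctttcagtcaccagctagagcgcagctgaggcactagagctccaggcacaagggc
Tnfaip3: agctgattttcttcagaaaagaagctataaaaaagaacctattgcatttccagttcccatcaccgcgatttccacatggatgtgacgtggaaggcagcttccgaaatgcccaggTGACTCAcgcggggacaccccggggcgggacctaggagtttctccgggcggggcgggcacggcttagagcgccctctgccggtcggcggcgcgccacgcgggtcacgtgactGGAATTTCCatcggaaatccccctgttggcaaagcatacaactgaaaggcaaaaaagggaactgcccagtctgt
Tnfaip6: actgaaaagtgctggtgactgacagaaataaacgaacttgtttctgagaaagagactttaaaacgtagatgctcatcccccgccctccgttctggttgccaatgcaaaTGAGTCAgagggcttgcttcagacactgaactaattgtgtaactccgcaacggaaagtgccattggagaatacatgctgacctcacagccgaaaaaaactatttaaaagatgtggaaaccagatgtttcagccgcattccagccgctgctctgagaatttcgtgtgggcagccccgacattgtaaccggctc

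The NF-κB letters occurred in 1 of the 8 promoters, that of *Tnfaip3*, as GGAATTTCC with its first base at position -24 from the start site. Of 32851 promoters in the table, 412 (1.25%) held these letters. The AP-1 letters occurred in the promoters of *Tnfaip3* (TGACTCA, position -136) and *Tnfaip6* (TGAGTCA, position -142), and in 2565 of all promoters (7.81%). These matches are a description of the sequence. The absence of a match from the *Tnf* and *Tnfrsf1b* promoters says only that these letters are not in that window.

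After barcodes with under 500 genes, over 10% mitochondrial or over 1% hemoglobin unique molecular identifiers (UMIs, which count captured molecules) were left out, 2667 PBS and 4014 CFA cells remained, with medians of 7022 and 6509.5 UMIs per cell. The hemoglobin limit removed 3178 PBS and 339 CFA barcodes. The libraries shared 2 barcode sequences among the cells kept. Levels are given as CPM, the UMIs of a gene per 1000000 UMIs of a class of cells. All intervals are exact 95% intervals and cover counting error only. Limits given for 0 UMIs are those of 3 counts. Cells fell into 36 clusters. Of these, 30 were named as 15 classes from marker genes, and 6 clusters with 208 PBS and 416 CFA cells stayed unnamed. The PBS library held 19 macrophage-like, 37 monocyte-like and 1 osteoclast-like cell against 304, 131 and 277 in the CFA library, so these 3 classes were not compared between the libraries. The other named classes had at least 50 cells in each, except lymphatic-like cells, with 18 in PBS and 12 in CFA. A lining fibroblast cluster led by *Prg4*, with 30 PBS and 7 CFA cells, stayed among the unnamed clusters. The fibroblast-like class therefore leaves it out.

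Over all cells, the *Tnf* level was 9.01 CPM in PBS and 63.0 CPM in CFA, that of *Tnfrsf1b* 11 and 81.2 CPM, and that of *Tnfaip3* 33.1 and 140 CPM. *Tnfrsf11a* stood at 7.76 and 16.9 CPM, *Tnfrsf11b* at 13.4 and 4.82 CPM, *Tnfsf11* at 11.1 and 9.14 CPM, *Tnfrsf1a* at 83.0 and 91.3 CPM and *Tnfaip6* at 398 and 362 CPM. These levels leave out barcodes over the hemoglobin limit, which removed more from PBS than from CFA. With no such limit, *Tnf* and *Il1rn* were leading genes of an unnamed group, with 103 barcodes from PBS against 1 from CFA. The levels over all cells and the shares below therefore describe only the barcodes kept. Both also depend on how many cells of each class were captured after CD45 depletion. PBS held 37 monocyte-, 19 macrophage- and 1 osteoclast-like cell against 131, 304 and 277 in CFA. The classes that held the UMIs of these genes differed between the libraries. Monocyte-, macrophage- and osteoclast-like cells together contributed 45.3% of *Tnf* UMIs in PBS and 75.4% in CFA. Their part of *Tnfrsf1b* was 28.4% and 74.5%, that of *Tnfaip3* 16.6% and 72.1%, and that of *Tnfrsf11a* 6.64% and 61.5%. The stromal genes had other sources. Fibroblast-like cells held 73.5% and 75.9% of the *Tnfaip6* UMIs, and chondrocyte-like cells held 47.5% and 45.8% of the *Tnfrsf11b* UMIs. For *Tnfsf11*, osteocyte- or osteoblast-like cells gave 36.4% of PBS UMIs and 7.14% of CFA UMIs, and tenocyte-like cells 31.8% and 28.6%.

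**Figure D1:**
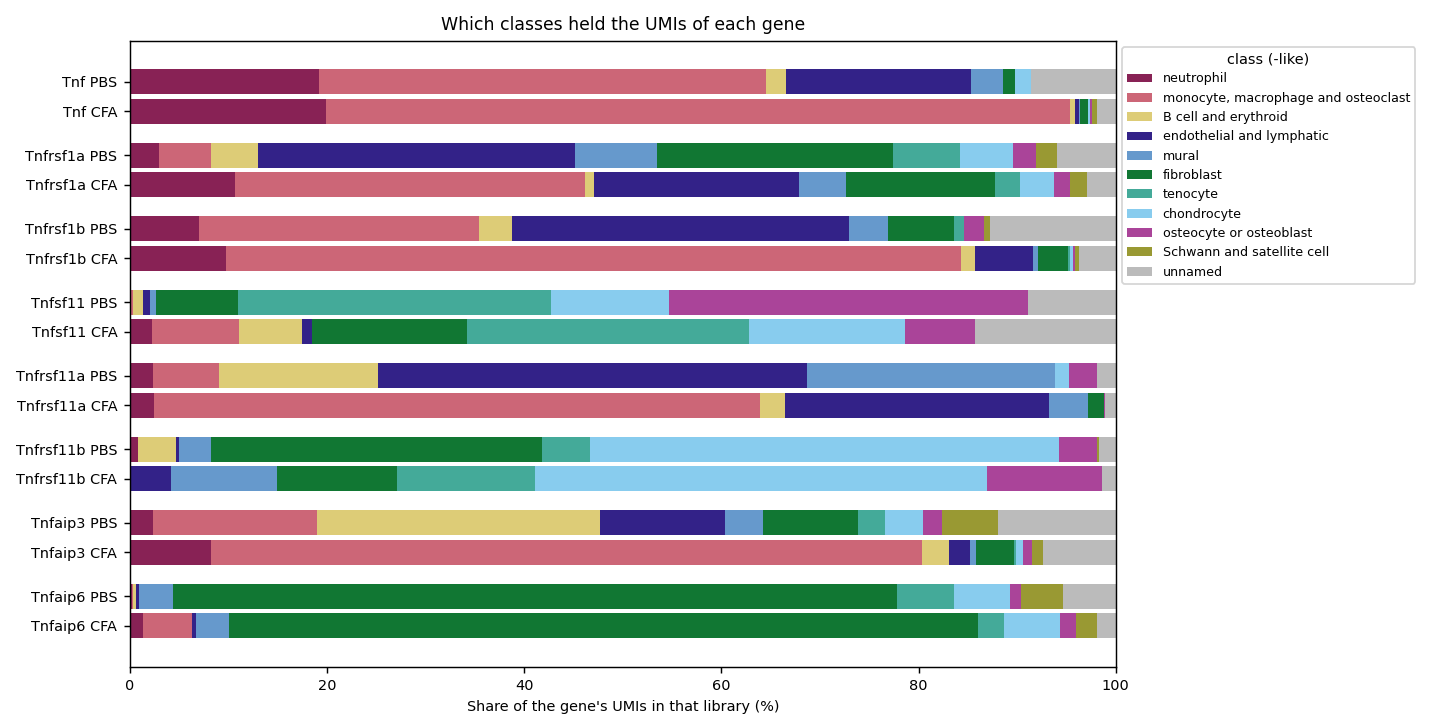
Share of each gene's UMIs (x axis, percent of that gene's UMIs in the library) held by each class of cells (colors), with 1 bar for the PBS and 1 for the CFA library of each gene. Monocyte-, macrophage- and osteoclast-like cells together held 75.4% of the *Tnf* UMIs in the CFA library, and fibroblast-like cells 75.9% of the *Tnfaip6* UMIs.

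*Tnf*, the ligand that opens the cascade, was a myeloid gene in both libraries, and its level in neutrophil-like cells was higher in the CFA group. In that class it stood at 63.7 CPM (46.8 to 84.7, 47 UMIs) in PBS and 181 CPM (166 to 196, 558 UMIs) in CFA, a ratio of 2.84 (2.11 to 3.91). A *Tnf* UMI was found in 18 of 70 PBS cells (25.7%) and in 164 of 352 CFA cells (46.6%). After each cell was thinned to 1000 UMIs, the shares were 7.58% and 17.2%. In Schwann-like cells, taken as a class that should lack *Tnf*, 0 of 307 PBS cells (which allows up to 0.977%) and 1.33% of CFA cells held a UMI. Median depths were 7714.5 and 4552 UMIs in neutrophil-like and 3827 and 3433 UMIs in Schwann-like cells. Markers of macrophages summed to 184 CPM in PBS and 700 CPM in CFA neutrophil-like cells, and their part in the *Tnf* difference was not tested.

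The neutrophil-like class was made of different clusters in the libraries. A cluster led by *Camp* and *Ngp*, genes of granule proteins made by immature neutrophils, held 57 of 70 PBS cells and 204 of 352 CFA cells. Within it *Tnf* stood at 31.0 CPM in PBS and 116 CPM in CFA, a ratio of 3.73 (2.40 to 6.11). A second cluster, led by *Il1f9* and *Acod1*, held 4 PBS and 127 CFA cells. There *Tnf* stood at 1709 and 645 CPM, a ratio of 0.377 (0.251 to 0.589), and 20 of its 26 PBS UMIs came from 1 cell. Over the whole class the ratio was 1.49 (1.12 to 2.03) with cells classed singly, 4.71 with no hemoglobin limit and 4.76 without the top cell of each library.

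In the CFA library the highest *Tnf* levels were 188 CPM (171 to 207) in monocyte-like, 181 CPM in neutrophil-like and 165 CPM (153 to 178) in macrophage-like cells, and the intervals of neighbours in this order overlapped. The monocyte-like cluster held all 7 monocyte markers, but also 4 of 7 progenitor markers, and its leading genes *Prtn3*, *Ctsg*, *Mpo* and *Elane* are those of granule enzymes made by granulocyte and monocyte progenitors. Osteoclast-like cells were lower, at 103 CPM (97.0 to 110). The next class, satellite cell-like, stood at 18.0 CPM. Shares of cells with a *Tnf* UMI ran the other way, with 60.3% of monocyte-like, 62.8% of macrophage-like and 72.6% of osteoclast-like cells, whose median depth was 31235 UMIs, so no order was read from them. The few PBS cells of these types also held *Tnf*, at 149 CPM in the 19 macrophage-like and 91.7 CPM in the 37 monocyte-like cells.

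Among CFA macrophage-like cells, the receptor gene *Tnfrsf1b* was found in 81.2% of the 191 cells with a *Tnf* UMI and in 67.3% of the rest. *Tnfaip3* was found in 90.1% of the first and 67.3% of the second. In monocyte-like cells *Tnfaip3* was found in 94.9% of cells with and 51.9% of cells without *Tnf*. Cells with *Tnf* were deeper, with medians of 13997 against 8865 UMIs in macrophage-like and 17099 against 13729 UMIs in monocyte-like cells, and the part of depth in these shares was not tested.

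In endothelial-like cells *Tnf* was lower in the CFA group. It stood at 8.09 CPM (5.93 to 10.8, 46 UMIs) in PBS and 1.81 CPM (0.933 to 3.15, 12 UMIs) in CFA, a ratio of 0.223 (0.108 to 0.428), with UMIs in 4.64% and 1.17% of cells. Only the PBS level was above that of Schwann-like cells, which was 0 CPM (0 UMIs, which allows up to 1.96 CPM) in PBS and 2.75 CPM (0.894 to 6.43) in CFA. Fibroblast-like cells held 3 *Tnf* UMIs in PBS and 21 in CFA, a ratio of 6.74 (2.01 to 35.3). Their CFA level of 3.82 CPM (2.37 to 5.84) lay within the interval of the Schwann-like cells and was read as background.

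**Figure D2:**
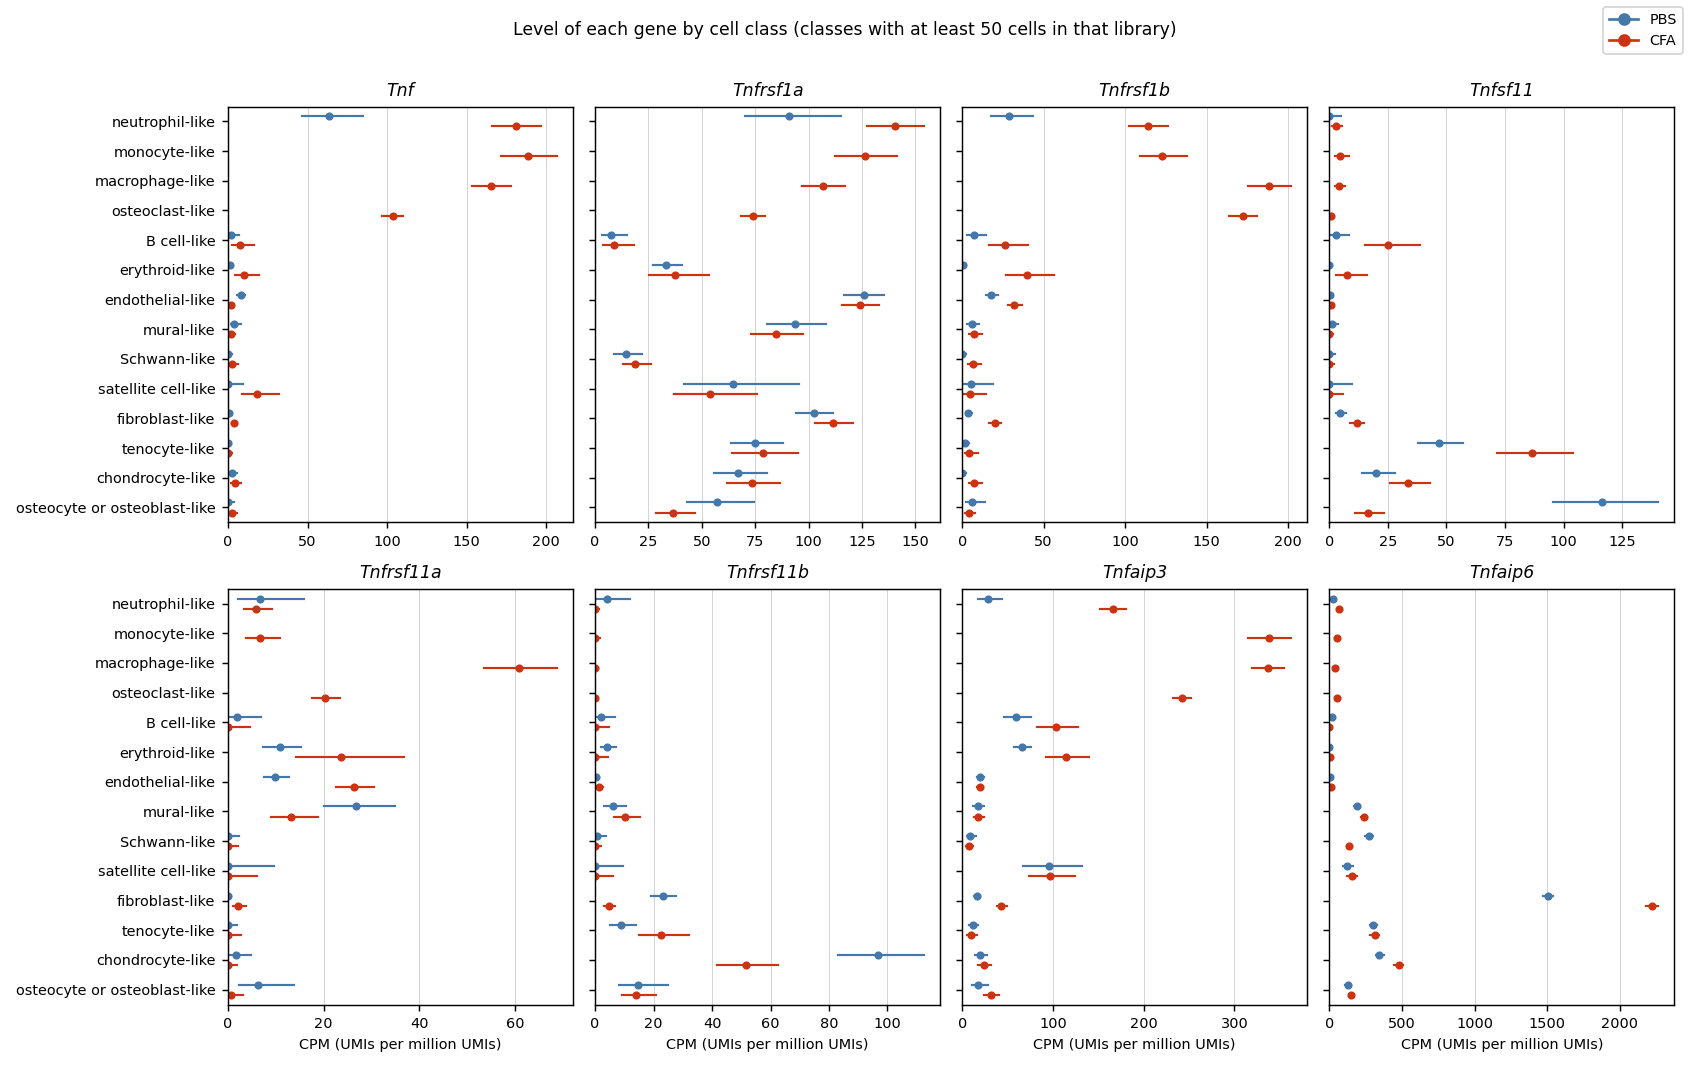
Level of each of the 8 genes (x axis, CPM, from 0) in each class of cells (y axis) in the PBS and CFA libraries, shown where the class had at least 50 cells in that library. Points are summed levels and lines exact Poisson 95% intervals, and *Tnf* sits between 103 and 188 CPM in the 4 CFA myeloid classes and at 18.0 CPM or less in the other CFA classes.

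*Tnfrsf1a*, the TNF receptor carried by most cell types, was spread over the joint, with close levels in the libraries in most classes. Endothelial-like cells, its leading class, stood at 126 CPM (117 to 135) in PBS and 124 CPM (116 to 133) in CFA, a ratio of 0.987 (0.892 to 1.09). Fibroblast-like cells stood at 102 and 112 CPM with a ratio of 1.09 (0.97 to 1.23), and chondrocyte-like cells at 67.2 and 73.5 CPM with a ratio of 1.09 (0.851 to 1.41). Their intervals all included 1. The intervals left out 1 in neutrophil-like cells, at 90.8 and 140 CPM and a ratio of 1.55 (1.19 to 2.03), and in osteocyte- or osteoblast-like cells, at 57.1 and 36.7 CPM and a ratio of 0.642 (0.441 to 0.939). Among classes of at least 50 cells, B cell-like cells had the lowest levels, at 7.58 and 8.80 CPM. Schwann-like cells stood at 14.4 and 18.7 CPM. Within the endothelium, venular cells led by *Plvap* stood at 183 and 175 CPM and *Car4* capillary cells at 121 and 94.5 CPM.

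*Tnfrsf1b*, the TNF receptor of leukocytes and endothelium, was higher in CFA cells of several classes. In neutrophil-like cells it stood at 28.5 CPM (17.6 to 43.5) in PBS and 114 CPM (102 to 127) in CFA, a ratio of 4.01 (2.58 to 6.56), and within the *Camp* and *Ngp* cluster at 22.1 and 75.5 CPM with a ratio of 3.41 (2.02 to 6.21). Macrophage markers in that cluster summed to 193 CPM in PBS and 692 CPM in CFA, and their part was not tested. For *Tnfrsf1b*, CFA macrophage-like cells stood highest at 188 CPM (175 to 202), with osteoclast-like cells at 172 CPM (164 to 181) overlapping them. Monocyte-like cells, at 123 CPM, overlapped neutrophil-like cells. Endothelial-like cells stood at 17.9 and 32.1 CPM, a ratio of 1.79 (1.4 to 2.28), and both arterial cells (28.7 and 51.1 CPM) and *Plvap* venular cells (19.2 and 36.6 CPM) were higher in CFA.

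Fibroblast-like cells held *Tnfrsf1b* at 3.78 CPM (2.31 to 5.84) in PBS and 20.03 CPM (16.5 to 24.1) in CFA, a ratio of 5.29 (3.27 to 9). Of these cells, 3.21% in PBS and 19.7% in CFA held a UMI, and 0.430% and 2.52% did after thinning to 1000 UMIs. In Schwann-like cells the shares were 0% and 2.93% as counted, and 0% and 1.38% after thinning. Depths were 11298.5 and 12826 UMIs in fibroblast-like cells and 3827 and 3433 UMIs in Schwann-like cells. The CFA level in Schwann-like cells was 6.61 CPM (3.42 to 11.5), below that of fibroblast-like cells. Leukocyte RNA moved the same way in fibroblast-like cells: *Ptprc*, which encodes CD45, stood at 1.89 and 12.9 CPM and macrophage markers summed to 11.4 and 57.2 CPM, and their part in the *Tnfrsf1b* difference was not tested.

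*Tnfsf11*, the ligand for RANK, was confined mostly to skeletal and connective tissue classes, and the class with its highest level differed between the libraries. Osteocyte- or osteoblast-like cells led in PBS at 116 CPM (95.7 to 140, 110 UMIs) and stood at 16.4 CPM (11 to 23.5, 29 UMIs) in CFA, a ratio of 0.141 (0.0900 to 0.213). Tenocyte-like cells led in CFA, at 86.7 CPM (71.6 to 104, 116 UMIs), and stood at 46.8 CPM (37.9 to 57.1, 96 UMIs) in PBS, a ratio of 1.85 (1.4 to 2.46), which was 1.15 (0.767 to 1.70) when libraries were log-normalized and merged without integration. The lower level in osteocyte- or osteoblast-like cells depended on which barcodes were kept: with no hemoglobin limit the ratio was 0.657.

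In osteocyte- or osteoblast-like cells *Tnfsf11* was found in 21 of 72 cells in PBS (29.2%) and in 11 of 115 cells in CFA (9.57%), and in 7.04% and 4.35% after thinning, with intervals of the thinned shares that overlapped. A cluster led by the osteocalcin gene *Bglap* held 35 PBS and 29 CFA cells, and there the level was 199 CPM in PBS and 40.1 CPM in CFA, a ratio of 0.202 (0.123 to 0.319), with a UMI in 19 and 8 cells. *Ptprc* stood at 0 CPM in PBS (which allows up to 3.17 CPM) and 27.1 CPM in CFA cells of this class. In tenocyte-like cells *Tnfsf11* was found in 35 of 152 PBS cells (23.0%) and 40 of 110 CFA cells (36.4%), with thinned shares of 2.63% (0.722 to 6.60) and 12.7% (7.14 to 20.4).

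Chondrocyte-like cells held *Tnfsf11* at 20.2 CPM in PBS and 33.6 CPM in CFA, a ratio of 1.67 (1.09 to 2.58). Fibroblast-like cells stood at 4.73 and 11.7 CPM with a ratio of 2.46 (1.53 to 4.08), from UMIs in 7 of 468 PBS and 17 of 365 CFA cells. Most of that difference lay in a cluster led by *Apod* and *Inmt*, with 1 UMI in PBS and 36 in CFA, of which 14 were in 1 of its 7 positive cells. With cells classed singly, the fibroblast-like ratio was 1.21. Of the 2 classes taken as lacking the gene, endothelial-like cells stood at 0.352 and 0.602 CPM, with UMIs in 0.290% and 0.425% of cells. Their median depths were 5681 and 4726 UMIs. Neutrophil-like cells held no UMI in PBS but stood at 2.92 CPM (1.33 to 5.54) in CFA.

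Some *Tnfsf11* came from few lymphoid, myeloid or unnamed cells. Monocyte-, macrophage- and osteoclast-like cells together held 8.87% of CFA UMIs, among them 18 in 2 macrophage-like and 11 in 2 monocyte-like cells. B cell-like cells held 3 UMIs in PBS and 20 UMIs, from 4 cells, in CFA, a ratio of 8.85 (2.62 to 46.5). An unnamed cluster led by *Siglech* and *Flt3* held 27 UMIs in 1 of its 45 PBS cells and 55 UMIs in 11 of its 89 CFA cells.

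*Tnfrsf11a*, which encodes RANK, was highest in mural-like cells in PBS and in macrophage-like cells in CFA, among classes of at least 50 cells. The 19 PBS macrophage-like cells also held it, at 26.0 CPM (7 UMIs). Mural cells are the pericytes and smooth muscle cells around vessels. Mural-like cells stood at 26.7 CPM (20.01 to 34.9, 53 UMIs) in PBS and 13.2 CPM (8.93 to 18.9, 30 UMIs) in CFA, a ratio of 0.495 (0.306 to 0.790), with UMIs in 14.9% and 9.01% of cells. The difference was found in a cluster led by *Actg2*, *Rgs5* and *Vtn*, at 35.4 and 3.14 CPM with a ratio of 0.0886 (0.0102 to 0.350). In the *Myh11* cluster it stood at 20.6 and 17.2 CPM, with a ratio of 0.834 (0.466 to 1.5).

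Endothelial-like cells held *Tnfrsf11a* at 9.85 CPM (7.44 to 12.8) in PBS and 26.3 CPM (22.6 to 30.5) in CFA, a ratio of 2.67 (1.97 to 3.68), with a UMI in 4.64% and 8.82% of cells. *Plvap* venular cells stood at 29.8 and 48.5 CPM, a ratio of 1.63 (1.14 to 2.36), and arterial cells held 1 UMI in PBS and 17 in CFA. Of the 18 PBS and 12 CFA lymphatic-like cells, 9 and 5 held a UMI, at 136 and 151 CPM with a ratio of 1.11 (0.645 to 1.89). No *Tnfrsf11a* UMI was found in 307 PBS and 375 CFA Schwann-like cells, which allows shares of up to 0.977% and 0.8%.

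In the CFA library macrophage-like cells had the highest *Tnfrsf11a* level, 60.8 CPM (53.6 to 68.7), with a UMI in 43.8% of cells, above every other class of at least 50 cells. Osteoclast-like cells stood at 20.3 CPM (17.5 to 23.4), with a UMI in 42.2% of cells at a greater depth, and monocyte-like cells at 6.71 CPM (3.83 to 10.9). The osteoclast-like class was named from 4 of 8 markers, *Acp5*, *Dcstamp*, *Atp6v0d2* and *Mmp9*, and its leading genes were *Mmp12*, *H2-M2*, *Dcstamp* and *Spp1*. Its level of the calcitonin receptor gene *Calcr* was 0.215 CPM, of *Ocstamp* 1.07 CPM and of *Ctsk*, the bone-resorbing protease cathepsin K, 85.6 CPM, while the macrophage genes *Csf1r* and *C1qa* stood at 375.5 and 231 CPM. *Calcr* and *Ocstamp*, genes of mature osteoclasts, were near 0, and the class is called osteoclast-like by its marker count alone.

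*Tnfrsf11b*, the decoy that binds RANKL, was highest in chondrocyte-like cells and lower there in the CFA group. Its level was 96.9 CPM (83.0 to 112, 173 UMIs) in PBS and 51.5 CPM (41.8 to 62.7, 98 UMIs) in CFA, a ratio of 0.531 (0.410 to 0.685). The share of cells with a UMI was similar, 44.8% (34.1 to 55.9) and 42.4% (31.7 to 53.6), and after thinning 9.30% (4.10 to 17.5) and 2.35% (0.286 to 8.24). No *Tnfrsf11b* UMI was found in CFA monocyte-, macrophage-, osteoclast- or neutrophil-like cells. In neutrophil-like cells, the class taken as lacking the gene, 4.29% of PBS cells and 0 of 352 CFA cells (which allows up to 0.852%) held a UMI.

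In fibroblast-like cells *Tnfrsf11b* stood at 23.1 CPM (122 UMIs) in PBS and 4.73 CPM (26 UMIs) in CFA, a ratio of 0.205 (0.129 to 0.315). A single PBS cell held 52 of the 122 UMIs. Without the top cell of each library the ratio was 0.247. It was 0.499 with cells classed singly. The 3 fibroblast-like clusters differed. The *Apod* and *Inmt* cluster, with 70 of the PBS UMIs in 6 cells, stood at 40.4 and 3.76 CPM, a ratio of 0.0931 (0.0293 to 0.228). In the *Pi16* sublining cluster the levels were 11.4 and 2.17 CPM with a ratio of 0.191 (0.0688 to 0.462), whereas in a cluster led by *Angptl1* and *Cilp* they were 18.6 and 15.0 CPM with a ratio of 0.808 (0.396 to 1.57). In tenocyte-like cells *Tnfrsf11b* stood at 8.77 and 22.4 CPM, a ratio of 2.56 (1.38 to 4.87), but this direction was not kept: the ratio was 0.849 when libraries were log-normalized and merged without integration, and 0.624 with no hemoglobin limit. In osteocyte- or osteoblast-like cells the levels were 14.8 and 14.1 CPM, with a ratio of 0.953 (0.477 to 1.98), but its clusters moved apart. The *Bglap* cluster (35 PBS and 29 CFA cells) held 2 and 23 UMIs, a ratio of 10.5 (2.59 to 91.9), and a cluster led by *Dok6* and *Gpc5* (37 and 86 cells) held 12 and 2 UMIs, a ratio of 0.0587 (0.00638 to 0.264).

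The ratio of *Tnfsf11* to *Tnfrsf11b* UMIs is one of captured molecules and not of proteins. It was higher in CFA in fibroblast- and chondrocyte-like cells. It was lower in osteocyte- or osteoblast-like cells, where the high PBS value depended on the hemoglobin limit. In fibroblast-like cells it was 0.205 (0.128 to 0.317) in PBS and 2.46 (1.54 to 4.05) in CFA, and in chondrocyte-like cells 0.208 (0.141 to 0.299) and 0.653 (0.469 to 0.904), higher in CFA in both. The PBS value in fibroblast-like cells includes the cell with 52 *Tnfrsf11b* UMIs, and it was 0.846 with at least 1000 genes per cell and 0.813 with cells classed singly. In osteocyte- or osteoblast-like cells it was 7.86 (4.49 to 14.8) and 1.16 (0.656 to 2.07), lower in CFA. In tenocyte-like cells, where RANKL molecules outnumbered those of OPG in both libraries, it was 5.33 (3.20 to 9.38) and 3.87 (2.57 to 5.99), with intervals that overlapped. With no hemoglobin limit, the ratio in osteocyte- or osteoblast-like cells was 0.4 in PBS and 0.32 in CFA, so the high PBS value depended on that limit. Over all cells, 11 of 85 PBS and 17 of 121 CFA cells with a *Tnfsf11* UMI also held *Tnfrsf11b*. In chondrocyte-like cells 9 of 15 PBS and 7 of 21 CFA cells with *Tnfsf11* held both. In tenocyte-like cells 0 of 35 and 7 of 40 did.

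**Figure D3:**
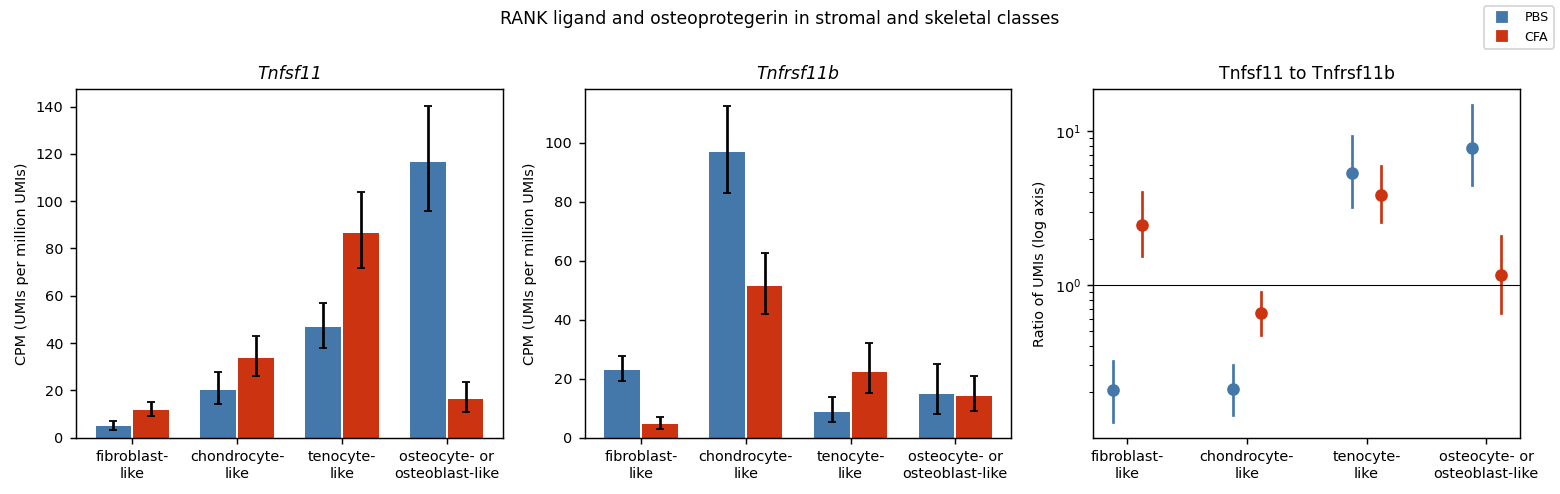
Levels of *Tnfsf11* and *Tnfrsf11b* (left and middle, CPM) and the ratio of their UMIs (right, log axis) in fibroblast-, chondrocyte-, tenocyte- and osteocyte- or osteoblast-like cells of the PBS and CFA libraries, with exact 95% counting intervals. The ratio lies above 1 in tenocyte-like cells of both libraries. It goes from 0.205 to 2.46 in fibroblast-like cells (the PBS value was 0.813 with cells classed singly). In osteocyte- or osteoblast-like cells it goes from 7.86 to 1.16, and the high PBS value depended on the hemoglobin limit.

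*Tnfaip3* encodes A20, an enzyme that edits ubiquitin chains and ends NF-κB signaling. In neutrophil-like cells it stood at 28.5 CPM (21 UMIs) in PBS and 166 CPM (512 UMIs) in CFA, a ratio of 5.83 (3.77 to 9.50), with a UMI in 22.9% and 49.1% of cells and in 7.58% and 23.1% after thinning. Within the *Camp* and *Ngp* cluster the levels were 23.6 and 113 CPM, a ratio of 4.80 (2.91 to 8.51). Macrophage markers in that cluster summed to 193 CPM in PBS and 692 CPM in CFA, and their part was not tested. In CFA macrophage-like and monocyte-like cells *Tnfaip3* stood at 337 and 338 CPM, and in osteoclast-like cells lower, at 242 CPM (232 to 252).

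Fibroblast-like cells held *Tnfaip3* at 16.3 CPM (13 to 20.1) in PBS and 43.3 CPM (38.0 to 49.2) in CFA, a ratio of 2.66 (2.07 to 3.45), and both the *Pi16* cluster (19.6 and 45.8 CPM) and the *Apod* and *Inmt* cluster (18.5 and 63.9 CPM) were higher in CFA. The *Angptl1* and *Cilp* cluster stood at 9.91 and 5.36 CPM, a ratio of 0.541 (0.155 to 1.55). In the same cells macrophage markers summed to 11.4 and 57.2 CPM, and their part was not tested. B cell-like cells stood at 59.7 and 103 CPM, a ratio of 1.73 (1.23 to 2.44). Satellite cell-like cells, the stem cells of muscle, stood at 95.7 and 96.5 CPM with a ratio of 1.01 (0.657 to 1.56), and endothelial-like cells at 19.9 and 19.4 CPM with a ratio of 0.976 (0.753 to 1.27).

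*Tnfaip6*, which encodes TSG-6, was the member with the most UMIs and marked fibroblast-like cells in both libraries. It stood at 1505 CPM (7953 UMIs) in PBS and 2222 CPM (12207 UMIs) in CFA, a ratio of 1.48 (1.44 to 1.52), with a UMI in 70.7% and 77.8% of cells and in 41.1% and 51.0% after thinning. The *Pi16* sublining cluster was highest, at 2344 and 2915 CPM, a ratio of 1.24 (1.2 to 1.29). The *Apod* and *Inmt* cluster stood at 1104 and 1481 CPM with a ratio of 1.34 (1.26 to 1.43), and the *Angptl1* and *Cilp* cluster at 929 and 878 CPM with a ratio of 0.946 (0.867 to 1.03). The *Pi16* cluster made up 142 of 468 PBS and 162 of 365 CFA fibroblast-like cells, so the makeup of the class moved with the level.

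Schwann-like cells, the glia of nerves, held *Tnfaip6* at 272 CPM in PBS and 136 CPM in CFA, a ratio of 0.5 (0.425 to 0.586), with a UMI in 35.5% and 25.1% of cells. Fibroblast markers in these cells summed to 2403 and 972 CPM, and their part was not tested. The largest Schwann-like cluster stood at 91.4 and 86.1 CPM with a ratio of 0.942 (0.624 to 1.42). A cluster led by *Cadm2* and *Cdh19* stood at 656 and 264 CPM, a ratio of 0.402 (0.3 to 0.534). B cell-like cells, where the gene is not expected, held 21.8 CPM in PBS and 0 CPM (0 UMIs, which allows up to 3.77 CPM) in CFA, and their fibroblast markers summed to 1645 and 91.8 CPM. Chondrocyte-like cells stood at 345 and 479 CPM, a ratio of 1.39 (1.25 to 1.54), and tenocyte-like cells at 302 and 313 CPM, a ratio of 1.04 (0.912 to 1.17). In neutrophil-like cells it stood at 24.4 and 68.7 CPM, a ratio of 2.82 (1.74 to 4.84), which was 0.824 with no hemoglobin limit.

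**Figure D4:**
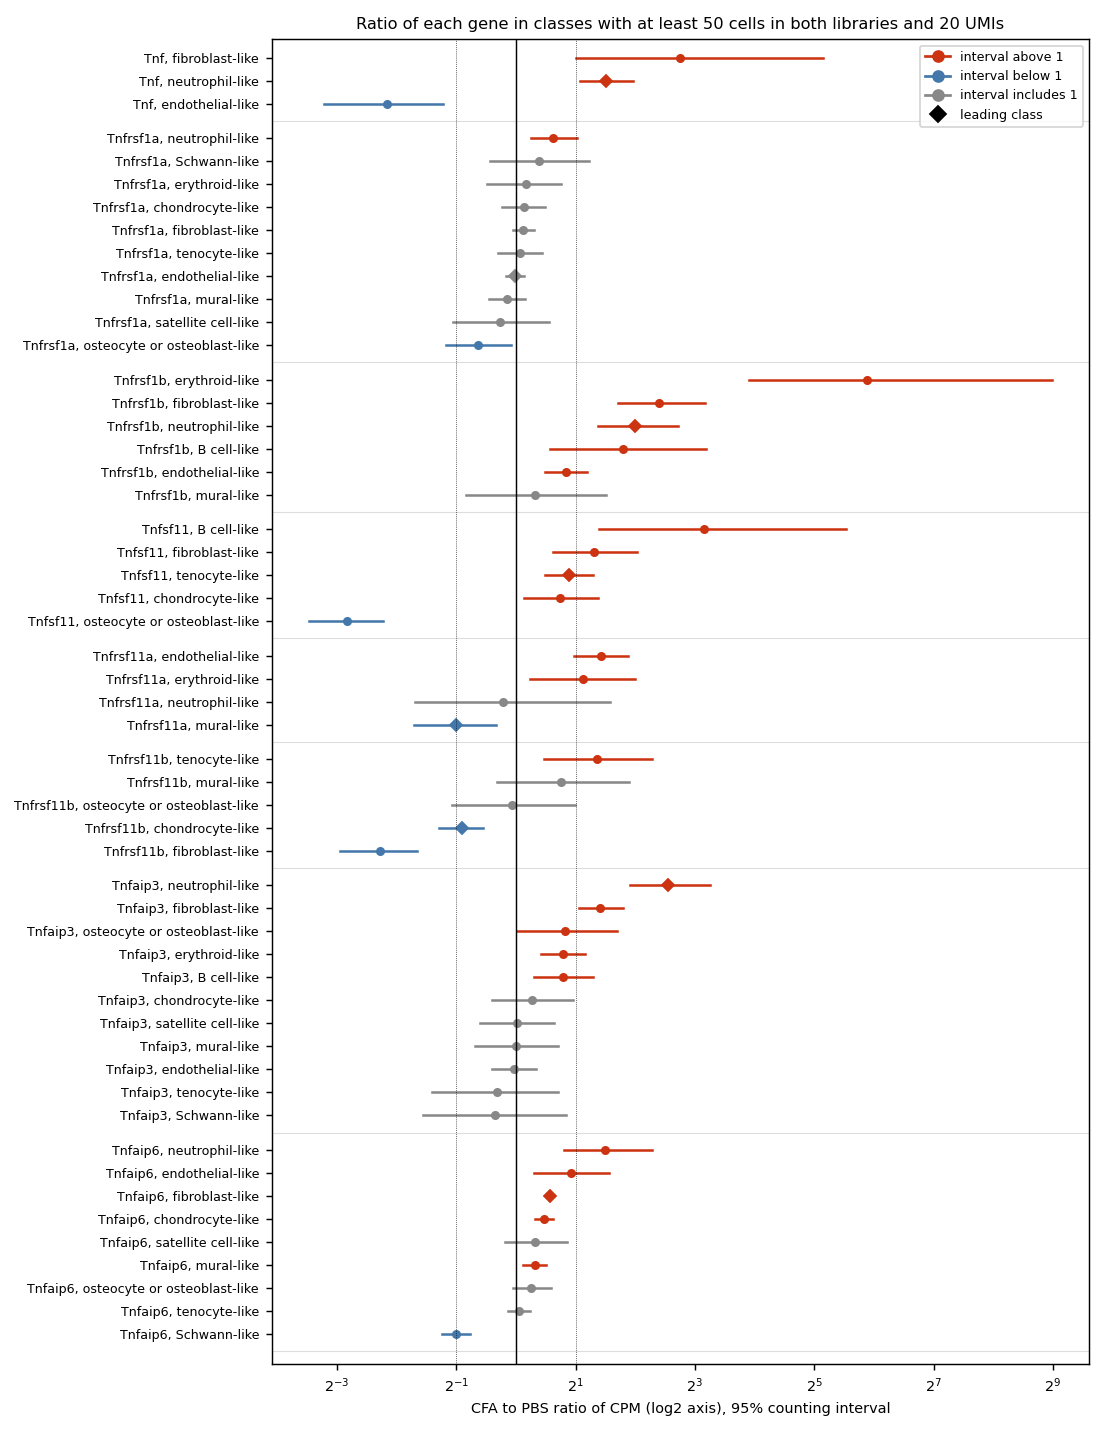
CFA to PBS ratio of CPM (x axis, log2 axis) of each gene in each class with at least 50 cells in both libraries and at least 20 UMIs of the gene, with exact 95% counting intervals. Of 53 pairs of gene and class, 25 had an interval above 1, 7 an interval below 1 and 21 an interval that included 1. The same count over all genes was not made, so these counts show no general rise. The pairs include erythroid-like cells, whose depths differed between the libraries, and *Tnf* in fibroblast-like cells, read as background.

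To read the members against all genes of a class, a gene was called higher or lower when its ratio was at least 2 or at most 0.5, its interval left out 1, and it had at least 20 UMIs over both libraries. Because the members were chosen with earlier results of these data known, the shares beside them are a description and no test of enrichment. In neutrophil-like cells 4 of the 6 members tested were called higher (*Tnfaip3*, *Tnfrsf1b*, *Tnf* and *Tnfaip6*) and none lower, against 7.53% of all genes called higher and 11.4% called lower. Of these calls, *Tnf* had a ratio under 2 with cells classed singly (1.49), and *Tnfaip6* was 0.824 with no hemoglobin limit. The members' median log2 ratio was 1.5, beside -0.10 for all genes. In fibroblast-like cells 4 of 7 were called higher (*Tnf*, *Tnfrsf1b*, *Tnfaip3* and *Tnfsf11*) and *Tnfrsf11b* lower, against 8.1% and 4.66% of all genes, with a median log2 ratio of 1.30 beside 0.01. The *Tnf* level among these was read as background, and the *Tnfsf11* ratio was 1.21 with cells classed singly.

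The other classes showed fewer calls. In endothelial-like cells *Tnfrsf11a* was called higher and *Tnf* lower of 6 tested, against 4.78% and 5.36% of all genes. The makeup of this class moved with the *Tnfrsf11a* level. *Tnfrsf11a* was the only member called, as lower, of 6 in mural-like cells, where 3.24% of all genes were called higher and 4.42% lower. *Tnfsf11* was called lower of 5 in osteocyte- or osteoblast-like cells, against 7.1% of all genes higher and 5.36% lower. *Tnfrsf11b* was called higher of 5 in tenocyte-like cells, against 3.53% of all genes higher and 4.85% lower. *Tnfaip6* was called lower of 3 in Schwann-like cells, against 6.84% of all genes higher and 2.68% lower. In B cell-like cells *Tnfsf11* and *Tnfrsf1b* were called higher and *Tnfaip6* lower of 4 (2.45% and 4.27%). No member was called in chondrocyte-like cells, of 5 tested (3.96% of all genes higher, 6.98% lower), or in satellite cell-like cells, of 3 tested (7.05% and 6%). In chondrocyte-like cells *Tnfaip3* (1.21) would be called under some alternatives, with 3.55 (1.77 to 7.91) at a resolution of 0.8, 3.28 (1.74 to 6.63) with no hemoglobin limit, 4.37 (2.04 to 10.7) with at least 1000 genes and 4.34 (2.02 to 10.6) with members and lists kept in clustering, and so would *Tnfsf11* (1.67), with 2.27 (1.4 to 3.74) without the highest doublet scores. In erythroid-like cells *Tnfrsf1b* and *Tnfrsf11a* were called higher of 4 (14.5% of all genes higher, 5.74% lower), but there the median depth was 18365 UMIs in PBS and 2322.5 UMIs in CFA, and *Ptprc* stood at 4.38 and 120.5 CPM.

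Other genes of the pathway were read from 7 lists with 113 genes. These lists were also chosen with earlier results of these data known, so their counts of calls are a description. Among target genes of TNF, 8 of 16 tested in neutrophil-like cells were called higher and 0 lower, with a median log2 ratio of 1.41. Of all genes in that class, 7.53% were called higher and 11.4% lower. The class had 70 PBS and 352 CFA cells, kept under a hemoglobin limit that removed more PBS than CFA barcodes. Its *Il1f9* and *Acod1* cluster held 4 PBS and 127 CFA cells, and macrophage markers summed to 184 and 700 CPM over the class. The part of this makeup and of macrophage RNA in the calls of all lists was not tested. The chemokine gene *Cxcl2* stood at 621 and 3788 CPM, a ratio of 6.10 (5.56 to 6.71), and *Ptgs2*, which encodes the prostaglandin-making enzyme COX-2, at 29.8 and 191 CPM, a ratio of 6.41 (4.19 to 10.3). *Il6* had 0 UMIs in PBS (which allows up to 4.07 CPM) and 27 in CFA. Of 11 brakes on NF-κB, 3 were called higher, *Nfkbia* (386 and 1417 CPM, a ratio of 3.67), *Nfkbie* (3.13) and *Nfkbib* (2.08). Of 22 receptor adaptors and kinases, 4 were called higher, led by *Traf1* (6.38), *Birc3* (3.07) and *Rel* (2.39), and *Traf5* was lower (0.359). *Adam17*, which encodes the protease that sheds TNF from the cell surface, stood at 32.5 and 140 CPM, a ratio of 4.29 (2.85 to 6.78), and its inhibitor *Timp3* was lower, with a ratio of 0.136. Among other receptors *Fas* was higher (4.44) and *Tnfrsf13b* lower (0.383), among other ligands *Ltb* was higher (2.58) and *Eda* lower (0.249), and among genes of hyaluronan *Vcan* (10.0) and *Cd44* (2.45) were higher and *Itih5* lower (0.462).

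In fibroblast-like cells 6 of 17 TNF target genes were called higher and 0 lower, with a median log2 ratio of 0.43. Of all genes in that class, 8.1% were called higher and 4.66% lower, with a median of 0.01. In fibroblast-like cells *Ptprc* stood at 1.89 and 12.9 CPM and macrophage markers summed to 11.4 and 57.2 CPM. The part of leukocyte RNA in these calls and in those of the other lists was not tested. *Mmp13*, a collagenase gene, stood at 1.51 CPM (8 UMIs) and 238 CPM (1310 UMIs), a ratio of 158 (79.7 to 366). The chemokine genes *Cxcl2* and *Cxcl5* had ratios of 17.7 (12.1 to 27.0) and 16.2 (12.6 to 21.2). Of 8 other ligands, *Tnfsf8* (39.3), *Tnfsf15* (35.3) and *Tnfsf13b* (9.45) were higher and *Tnfsf13* (0.377) lower. Receptors were called in both directions, with *Tnfrsf21* higher (2.18) and *Tnfrsf19* (0.263) and *Tnfrsf12a* (0.495) lower. *Rhbdf2*, a partner of ADAM17, was higher (2.50), and *Timp3* (0.479) and *Itih2* (0.188) were lower. None of 24 adaptors and kinases and none of 11 brakes were called, with medians of 0.09 and 0.26.

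TNF target genes did not move one way in the remaining leading classes. Of all genes, 3.96% were called higher and 6.98% lower in chondrocyte-like cells and 3.53% and 4.85% in tenocyte-like cells. The shares were 4.78% and 5.36% in endothelial-like and 3.24% and 4.42% in mural-like cells. In chondrocyte-like cells 4 of 12 were called higher, led by *Cxcl2* (30.7), *Ptgs2* (13.1) and *Mmp13* (7.76), and *Icam1* (0.225) and *Csf1* (0.433) lower. In these cells *Ptprc* stood at 0.56 and 19.95 CPM and macrophage markers summed to 3.36 and 27.3 CPM, and *Cxcl2* stood at 3596 CPM in CFA macrophage-like cells. In tenocyte-like cells *Cxcl2* (8.95) was the only one of 14 called higher and 4 were lower, among them *Ccl7* (0.0326), *Mmp3* (0.248) and *Vcam1* (0.325). In endothelial-like cells the adhesion gene *Selp* (119 and 252 CPM, a ratio of 2.12) and *Csf3* (5.13) were higher of 16, and the chemokine genes *Ccl2* (0.0440) and *Cxcl1* (0.261) lower. In mural-like cells *Cxcl5*, *Ptgs2*, *Cxcl2* and *Csf1* were called higher of 16, and *Ccl7* and *Ccl2* lower. Neutrophil markers in mural-like cells summed to 97.8 and 2422 CPM and *Ptprc* stood at 3.02 and 16.3 CPM. The part of these leukocyte genes in the calls was not tested.

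The genes most like each member were taken from 8662 genes by Pearson's correlation of log2(CPM + 10) over 25 points, each a class in a library. The points share 2 libraries and differ in depth, so these values are a description. *Tnf* was most like *Tarm1* (0.979), *Ccl3* (0.973) and *Nlrp3* (0.973), *Tnfrsf1b* most like *Csf2rb* (0.957), *Mob1a* (0.953) and *Naip2* (0.943), and *Tnfaip3* most like *Tank* (0.912), *Ccdc86* (0.884) and *Gm31718* (0.876). *Tnfsf11* was most like *Shisa2* (0.863), *Omd* (0.855) and *Mmp13* (0.855), *Tnfrsf11b* most like *Sema3d* (0.929), *Ngef* (0.923) and *Cemip* (0.915), and *Tnfaip6* most like *Gsn* (0.874), *Numbl* (0.865) and *Timp2* (0.861). *Tnfrsf1a* was most like *Ifitm2* (0.904), *Gm34455* (0.837) and *Fosl2* (0.834), and *Tnfrsf11a* most like *Prdm1* (0.860), *Fblim1* (0.791) and *Stom* (0.788). Between members, *Tnf* and *Tnfrsf1b* had a correlation of 0.892, *Tnf* and *Tnfaip3* 0.775, *Tnfrsf1b* and *Tnfaip3* 0.784, and *Tnfsf11* and *Tnfrsf11b* 0.558.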

How the data were processed

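The authors processed the reads with Cell Ranger 7.0.1 on GRCm38 (mm10) and deposited UMI counts per gene and barcode, without normalization. The annotation release and the treatment of intronic reads are not given in the sources used here. The kit is version 2 in the labels and 3.1 in the methods. The deposited barcodes numbered 7671 (PBS) and 5709 (CFA). The study's limits of 500 genes and 10% mitochondrial UMIs left 5845 and 4353, and a limit of 1% hemoglobin left 2667 and 4014, with 27201994 and 44432717 UMIs.

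Seurat 5.3.0 (SeuratObject 5.2.0, sctransform 0.4.2, Matrix 1.6.5, R 4.3.3) normalized each library with SCTransform, integrated them on 3000 genes and clustered cells (200 principal components, resolution 1.5), with members and pathway genes left out of clustering. Clusters were named from markers of 24 classes: a marker counted with a UMI in at least 25% of cells and 2-fold the level of other cells (10 CPM added to both), and a name needed 3. Scrublet (scanpy 1.11.5) marked 21 PBS and 2 CFA cells as doublets, which is too few in CFA for the caller to have worked, so doublets were kept, and an alternative removed the 5% with the highest scores (133 and 201 cells). Levels were computed in Python 3.11.15 (pandas 2.3.3, numpy 2.4.6, scipy 1.17.1), with exact Poisson, Clopper-Pearson and conditional binomial intervals, and matplotlib 3.10.9 drew the figures. The seed was 1. Calls and naming were tested on simulated data. Gene positions matched for 32158 of 32285 listed genes.

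Members and lists were chosen with earlier results of these data known. Named were the 8 members, up to 3 called genes with the highest and 3 with the lowest ratio of each list in the leading class of a member (the highest mean CPM of both libraries among classes with at least 50 cells in each), and the 3 genes most like each member. Alternatives were another resolution, log-normalized counts merged without integration, other limits on genes, mitochondrial and hemoglobin UMIs, doublet removal, members and lists kept in clustering, each cell classed on its own, a mean over cells, scaling by the median ratio of genes, removal of the top cell, and thinning to 2000 UMIs or none. No test between conditions was made, since each had 1 library.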

Additional observations from a re-analysis of the deposited data

How the results depend on the processing

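With 1 library per condition, intervals cover counting error alone, and neither animals nor batch can be told apart from treatment. The ratios of CFA to PBS in the leading class of each member moved by less than their counting interval in 75 comparisons with an alternative and by more in 14. *Tnfaip6* in fibroblast-like cells (1.48) was 1.56 at a resolution of 0.8, 1.57 with no hemoglobin limit, 1.71 with at least 1000 genes, 1.41 with each cell classed on its own and 1.34 in the largest shared cluster, an alternative chosen after seeing the data. *Tnf* in neutrophil-like cells (2.84) was 4.71 with no hemoglobin limit, 1.49 with each cell classed on its own and 4.76 without the top cell. *Tnfrsf1a* in endothelial-like cells (0.987) was 1.13 when log-normalized and merged, 0.874 as a mean over cells and 0.778 in the largest cluster. *Tnfsf11* in tenocyte-like cells (1.85) was 1.15 when log-normalized, *Tnfrsf11b* in chondrocyte-like cells (0.531) was 0.736 as a mean over cells, and *Tnfrsf11a* in mural-like cells (0.495) was 0.834 in the largest cluster. Direction turned for *Tnfrsf11b* in tenocyte-like cells (0.849 when log-normalized, 0.624 with no hemoglobin limit), for *Tnfaip3* in erythroid-like (0.860) and *Tnfaip6* in neutrophil-like cells (0.824) with no hemoglobin limit, for *Tnfaip6* in endothelial-like cells (0.393 without high doublet scores, 0.414 with each cell classed on its own) and for *Tnfrsf11a* in erythroid-like cells as a mean over cells (0.354). The causes were not tested.

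The *Tnfsf11* to *Tnfrsf11b* ratio in PBS tenocyte-like cells (5.33) was 2 when log-normalized, 1.28 with no hemoglobin limit and 2.18 with members and lists kept in clustering. In fibroblast-like cells the PBS value (0.205) was 0.368 with no hemoglobin limit, 0.846 with at least 1000 genes, 0.813 with each cell classed on its own and 0.0143 in the largest cluster, and the CFA value (2.46) was 4.14 with at least 1000 genes, 1.24 as a mean over cells and 7.2 in the largest cluster. In osteocyte- or osteoblast-like cells with no hemoglobin limit it was 0.4 in PBS, below 1, and 0.32 in CFA. List genes called lower in fibroblast-like cells (5) numbered 3 when log-normalized, 2 with at least 1000 genes and 3 with each cell classed on its own, and in neutrophil-like cells (5) 2 with each cell classed on its own. Some alternatives left a class under 50 cells and gave no value, such as neutrophil-like cells when log-normalized. No paired analysis was possible because each group has 1 library.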
